A study of Homo sapiens with 12 samples.

Results

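Proteins that are secreted or built into membranes enter the endoplasmic reticulum (ER) through a small set of machines, and the mRNAs of 42 of their subunits were followed here in HEK293T cells, a human embryonic kidney line, with and without knockdown of PRRC2B, a large RNA-binding protein that interacts with translation initiation factors. The 42 genes were taken by symbol from a list of subunits of these machines. They are 42 of the 59385 gene names in the count table, and all 42 passed the low-count filter that left 18166 genes for testing. Of these 42 mRNAs, 19 lost polysome association relative to their total RNA upon PRRC2B knockdown, as 16.4% of all genes tested did, and 2 gained it, as 10.7% of all genes tested did.

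The study compared 2 stable HEK293T lines, each carrying a short hairpin RNA (shRNA) that doxycycline (Dox) switches on and each studied 36 h after Dox was added: shCtrl, with a non-silencing shRNA, and shPRRC2B, with an shRNA against the coding region of PRRC2B mRNA. From each line, total RNA and polysome-associated RNA (sucrose gradient fractions 6 to 10 combined) were sequenced after poly(A) selection, with 3 biological replicates per line and fraction, which gives 4 groups and 12 libraries. According to the study's methods each line was a single clone, so the effect of the shRNA and a difference between clones cannot be told apart. The comparison asks which mRNAs change in translation efficiency (TE), the ratio of polysome RNA to total RNA, when PRRC2B is depleted.

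Most secretory and membrane proteins reach the ER while they are still being made. The signal recognition particle (SRP) binds the signal sequence as it leaves the ribosome and docks at the SRP receptor, and the ribosome is passed to the SEC61 channel, where the signal peptidase cuts the signal sequence, the translocon-associated protein (TRAP) complex assists insertion and the oligosaccharyltransferase (OST) attaches N-linked glycans. The ER membrane protein complex (EMC) inserts transmembrane segments that SEC61 handles poorly, and the GET pathway delivers tail-anchored proteins after translation has ended. HEK293T cells run the whole set as housekeeping machinery, and several of its subunits are transcribed under the unfolded protein response.

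The mRNAs of SSR1, SSR3, RPN2 and EMC3 are members of the study's list of PRRC2B-bound mRNAs, which came from photoactivatable crosslinking and immunoprecipitation (PAR-CLIP) with full-length PRRC2B and with its RNA-binding P2 fragment. For SSR1, SSR3 and RPN2, the parts of these sites that both baits share and that lie in the coding sequence are printed below as mRNA-strand DNA on GRCh38, 5′ to 3′, because these are members with a mapped contact to the depleted protein. Capitals mark the longest run made only of C and T or only of G and A.
SSR1 (minus strand, exon 2 of the canonical transcript, chr6:7309940-7310029): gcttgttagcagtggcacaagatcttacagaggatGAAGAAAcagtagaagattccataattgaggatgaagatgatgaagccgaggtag
SSR3 (minus strand, exon 4, chr3:156544328-156544424): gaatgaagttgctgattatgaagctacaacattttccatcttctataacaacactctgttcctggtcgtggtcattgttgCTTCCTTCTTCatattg
RPN2 (plus strand, exon 12, chr20:37228644-37228742): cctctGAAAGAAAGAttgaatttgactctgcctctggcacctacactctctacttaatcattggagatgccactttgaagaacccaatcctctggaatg

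The SSR1 stretch was 66.7% G or A, against 53.6% over the whole SSR1 coding sequence. The SSR3 stretch was 60.8% C or T, against 51.2% over its coding sequence, and it held the longest run of the 3, 11 pyrimidines. The RPN2 stretch was 54.5% C or T, close to the 52.9% of its coding sequence, and its longest run consisted of 10 purines. Of the 3 stretches shown, purines prevailed in 1 and pyrimidines in 2.

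Library totals lay between 9855734 and 20837542 counts, and the CPM below are counts brought to a common library size by the trimmed mean of M-values (TMM) over all 12 libraries. PRRC2B RNA was 272, 313 and 258 CPM in the shCtrl total libraries and 97.9, 103 and 100.5 CPM in the shPRRC2B total libraries, a log2 change of -1.49 ± 0.17 (SE, edgeR adjusted p = 4.25e-06). Replicates of polysome RNA scattered more than those of total RNA, with a chi-square per degree of freedom between replicate pairs of 13.8 to 75.2 against 3.26 to 8.57. The first shCtrl polysome library stood furthest from its replicates, at 53.7 and 75.2. Of the HEK293T markers, PAX2, NEFL, NEFM and INA were detected and LHX1 had at most 7 counts per library. NEFL, NEFM and INA were lower in shPRRC2B total RNA, NEFM by the most, at 283, 309 and 264 CPM in shCtrl and 94.6, 99.6 and 95.2 CPM in shPRRC2B. The part of this difference between the lines in the results below was not tested. Among the markers of other cell types, PTPRC and COL1A2 had at most 1 count, ALB and DCN at most 15, while MYOD1 reached 44 counts. These are bulk libraries, in which fewer cells that hold an mRNA and less of it per cell cannot be told apart.

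The TE change divides the ratio of polysome RNA to total RNA found in shPRRC2B cells by the one found in shCtrl cells, and was fitted as an interaction between line and fraction with edgeR's quasi-likelihood test. A gene was called TE-down or TE-up at a Benjamini-Hochberg adjusted p under 0.05, over all 18166 genes, and a log2 change beyond 0.5 in either direction. Of the 42 genes, 19 (45.2%) were TE-down, where 16.4% of all genes tested were, and 2 (4.76%) were TE-up, where 10.7% of all genes tested were. Their median log2 TE change was -0.47, against -0.03 over all genes tested, and 28 of 42 lay below 0. The spread within the group was wide, from -1.70 for STT3B to 0.99 for GET4, and the TE-down genes were found in every complex except GET.

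**Figure D1:**
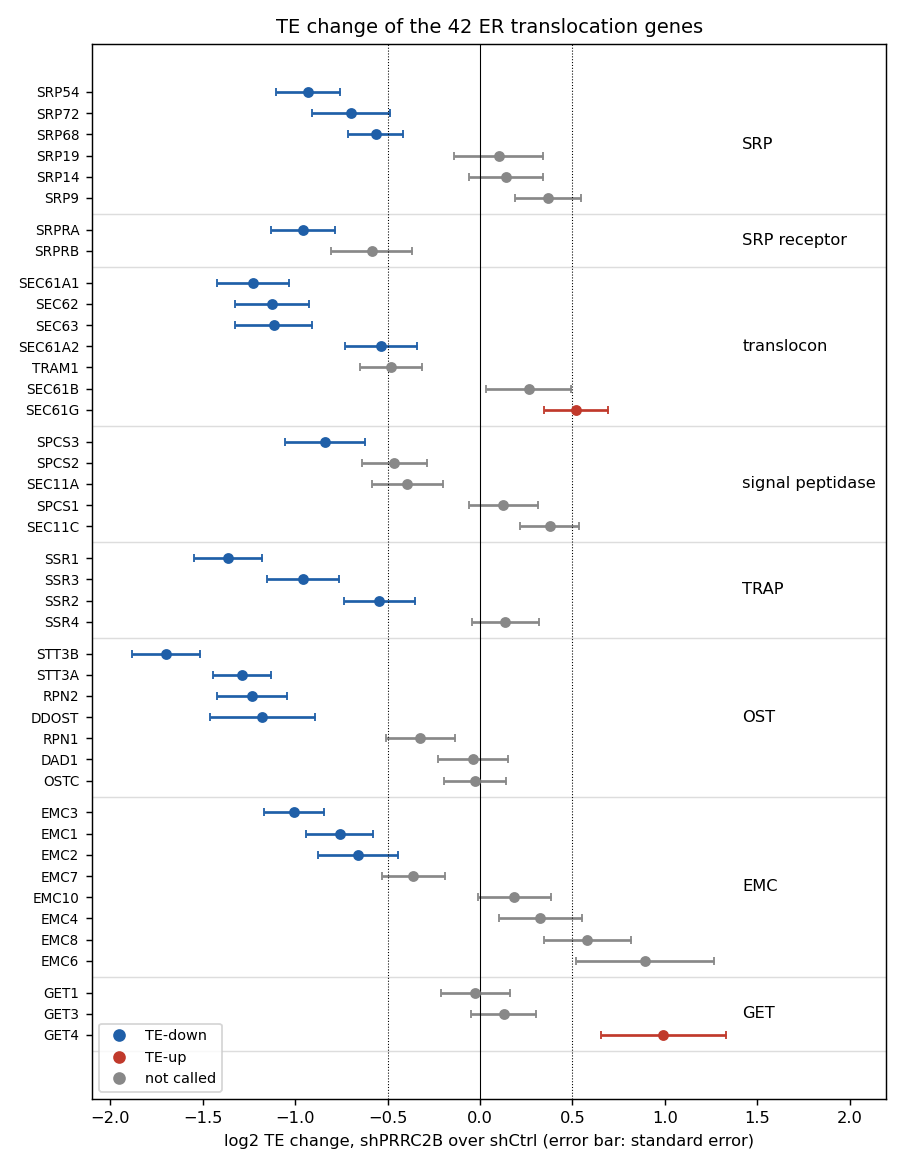
Log2 TE change of each of the 42 genes (x axis, shPRRC2B over shCtrl; bars, standard error of the fit from 3 libraries per line and fraction), ordered within each complex from lowest to highest (y axis). Blue points are TE-down, red points TE-up and grey points not called, and the dotted lines mark the threshold of 0.5. STT3B, SSR1 and STT3A lie furthest to the left, and GET4 and EMC6 furthest to the right.

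In the SRP, the 3 larger protein subunits were TE-down and the 3 small ones were not. SRP54, the GTPase that holds the signal sequence, had CPM values of 43.9, 45.3 and 42.3 in shCtrl total RNA, 27.5, 24.1 and 27.2 in shCtrl polysome RNA, 62.6, 67.2 and 68.9 in shPRRC2B total RNA and 22.7, 19.0 and 20.8 in shPRRC2B polysome RNA. Its total RNA was higher and its polysome RNA lower in the knockdown line, with no overlap between the lines in either fraction, and its TE changed by -0.93 ± 0.17 (SE, edgeR adjusted p = 0.00092) on the log2 scale. SRP68 and SRP72, which bind each other and the SRP RNA, changed in TE by -0.57 ± 0.15 (SE, edgeR adjusted p = 0.0102) and -0.70 ± 0.21 (SE, edgeR adjusted p = 0.0214). The call for SRP68 was lost when the libraries were scaled by TMM within each fraction or when a minimum of 10 counts was asked of each library, with a TE change of -0.50 at the least. The call for SRP72 rested on single libraries: its adjusted p ranged up to 0.0528 when 1 library was left out, and it was lost without the first or second shCtrl total library or the second shPRRC2B total library, with TE changes between -0.91 and -0.56 over the 12 libraries left out.

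SRP9, which with SRP14 forms the domain that slows elongation, had the highest TE change of the particle, 0.37 ± 0.18 (SE, edgeR adjusted p = 0.14), and was not called. Its CPM was 317, 303 and 348 in shCtrl total RNA, 2151, 2015 and 1775 in shCtrl polysome RNA, 248, 253 and 240.3 in shPRRC2B total RNA and 2098, 1793 and 1983 in shPRRC2B polysome RNA. The polysome values of the lines overlapped, and total RNA was lower in all 3 knockdown libraries. SRP14 (0.14) and SRP19 (0.10), an assembly subunit, were likewise not called in TE, but SRP19 rose together in total RNA (0.69 ± 0.17, SE, edgeR adjusted p = 0.00529) and in polysome RNA (0.79 ± 0.17, SE, edgeR adjusted p = 0.000942). Of the SRP19 exons, 18.2% of the bases overlap other genes, among them REEP5 on the opposite strand. No strand setting is stated for the counting. The overlapping share was 22.9% for GET1, 21.3% for SRPRB, 20.8% for SSR3, 15.7% for DDOST and 12.3% for EMC10.

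Both subunits of the SRP receptor lost polysome RNA. SRPRA, the GTPase that pairs with SRP54, had CPM values of 68.3, 71.4 and 68.0 in shCtrl total RNA, 50.3, 62.2 and 68.7 in shCtrl polysome RNA, 80.1, 89.2 and 84.3 in shPRRC2B total RNA and 39.1, 37.1 and 37.6 in shPRRC2B polysome RNA. Every knockdown polysome library lay under every control polysome library, while total RNA was higher in all 3 knockdown libraries, and the TE change was -0.96 ± 0.18 (SE, edgeR adjusted p = 0.000808). SRPRB, the membrane anchor, had CPM values of 35.7, 36.5 and 37.2 in shCtrl total RNA, 114, 186 and 169 in shCtrl polysome RNA, 31.9, 35.6 and 33.0 in shPRRC2B total RNA and 106, 81.8 and 99.2 in shPRRC2B polysome RNA. Its polysome RNA was lower without overlap (-0.71 ± 0.16, SE, edgeR adjusted p = 0.00131), its total RNA values nearly met at 35.6 and 35.7 CPM, and its TE change of -0.59 ± 0.22 (SE, edgeR adjusted p = 0.0562) missed the threshold. Leaving out the first shCtrl polysome library or the first shPRRC2B polysome library brought SRPRB past it, with a TE change down to -0.81 and an adjusted p down to 0.00143, and DESeq2, RLE size factors or a filter of at least 1 count did so too.

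Of the 7 genes of the SEC61 channel and its partners, SEC61A1, SEC62, SEC63 and SEC61A2 were TE-down and SEC61G was TE-up. SEC61A1 encodes the pore, and its mRNA had CPM values of 150.0, 166 and 143 in shCtrl total RNA, 64.2, 79.3 and 93.8 in shCtrl polysome RNA, 213, 217 and 196 in shPRRC2B total RNA and 50.0, 46.4 and 41.8 in shPRRC2B polysome RNA. Total RNA was higher and polysome RNA lower in all knockdown libraries, so that the ratio of the group means fell from 0.518 to 0.221 and the TE change was -1.23 ± 0.19 (SE, edgeR adjusted p = 0.000249). SEC62 and SEC63, which serve post-translational import and help open the channel, changed in TE by -1.12 ± 0.20 (SE, edgeR adjusted p = 0.000629) and -1.12 ± 0.21 (SE, edgeR adjusted p = 0.000949), each with lower polysome RNA (-1.12 and -0.92) and with total RNA that was not called. TRAM1, a membrane partner of the channel, had an adjusted p of 0.041 in edgeR's test at a TE change of -0.48, which lies under the fold threshold.

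Of the small channel subunits, SEC61G was TE-up. It had CPM values of 51.7, 50.5 and 47.1 in shCtrl total RNA, 871, 836 and 744 in shCtrl polysome RNA, 29.1, 31.1 and 32.7 in shPRRC2B total RNA and 689.6, 684 and 814 in shPRRC2B polysome RNA. Its total RNA fell without overlap (-0.69 ± 0.13, SE, edgeR adjusted p = 0.000482) while its polysome values overlapped, which gave a TE change of 0.52 ± 0.17 (SE, edgeR adjusted p = 0.0337). That call was kept without the third shCtrl total, the first shCtrl polysome or the second shPRRC2B polysome library and lost without any of the other 9, with TE changes between 0.40 and 0.56. It was also lost with the filter of at least 1 count, with either replicate block and after the length trend was removed. SEC61B, the other small subunit, showed a TE change of 0.26 ± 0.23 (SE) and was not called in either fraction.

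The signal peptidase had 1 TE-down gene of 5. SPCS3, an accessory subunit, had CPM values of 86.7, 80.3 and 83.2 in shCtrl total RNA, 56.7, 94.3 and 73.9 in shCtrl polysome RNA, 122, 135 and 124 in shPRRC2B total RNA and 65.1, 70.8 and 55.9 in shPRRC2B polysome RNA. Its total RNA rose (0.61 ± 0.15, SE, edgeR adjusted p = 0.00492) with overlapping polysome values, and its TE change was -0.84 ± 0.22 (SE, edgeR adjusted p = 0.00848). SEC11C, 1 of the 2 alternative catalytic subunits, had the highest TE change of the complex, 0.38 ± 0.16 (SE, edgeR adjusted p = 0.0879), which was not called. SPCS1 fell about equally in total RNA (-0.83) and in polysome RNA (-0.70), with a TE change of 0.13. Of the SPCS1 exon bases, 56.6% overlap GLT8D1 and NEK4 on the opposite strand. SPCS2, another accessory subunit, was at -0.46 and was not called (edgeR adjusted p = 0.0598).

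Within the TRAP complex SSR1, SSR2 and SSR3, which encode the alpha, beta and gamma subunits, were TE-down, while SSR4, which encodes the delta subunit, was not called at 0.14 ± 0.18 (SE). SSR1 CPM was 100.4, 95.7 and 95.1 in shCtrl total RNA, 142, 191 and 202 in shCtrl polysome RNA, 132, 140.4 and 134 in shPRRC2B total RNA and 95.1, 90.7 and 104 in shPRRC2B polysome RNA. The lines did not overlap in either fraction, total RNA being higher and polysome RNA lower in the knockdown, and the ratio of polysome to total RNA fell from 1.84 to 0.714, a TE change of -1.36 ± 0.18 (SE, edgeR adjusted p = 7.51e-05). SSR3 CPM was 96.3, 102 and 95.9 in shCtrl total RNA, 320.2, 418 and 463 in shCtrl polysome RNA, 144, 128 and 124 in shPRRC2B total RNA and 252, 281 and 298 in shPRRC2B polysome RNA. Its values were arranged like those of SSR1, with no overlap between the lines in either fraction, with a TE change of -0.96 ± 0.19 (SE, edgeR adjusted p = 0.00164). For SSR4 the CPM was 140.2, 150.2 and 127 in shCtrl total RNA, 1713, 1832 and 1865 in shCtrl polysome RNA, 112, 108 and 106 in shPRRC2B total RNA and 1392, 1476 and 1784 in shPRRC2B polysome RNA. SSR4 total RNA was lower in each knockdown library and its polysome values overlapped. SSR2, at -0.55 ± 0.19 (SE, edgeR adjusted p = 0.0437), kept its call without the first or second shCtrl polysome or the first or the third shPRRC2B polysome library and lost it without any of the other 8, with TE changes between -0.70 and -0.48. It was also lost under total counts, TMM within each fraction, at least 10 counts in every library or the block within line.

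**Figure D2:**
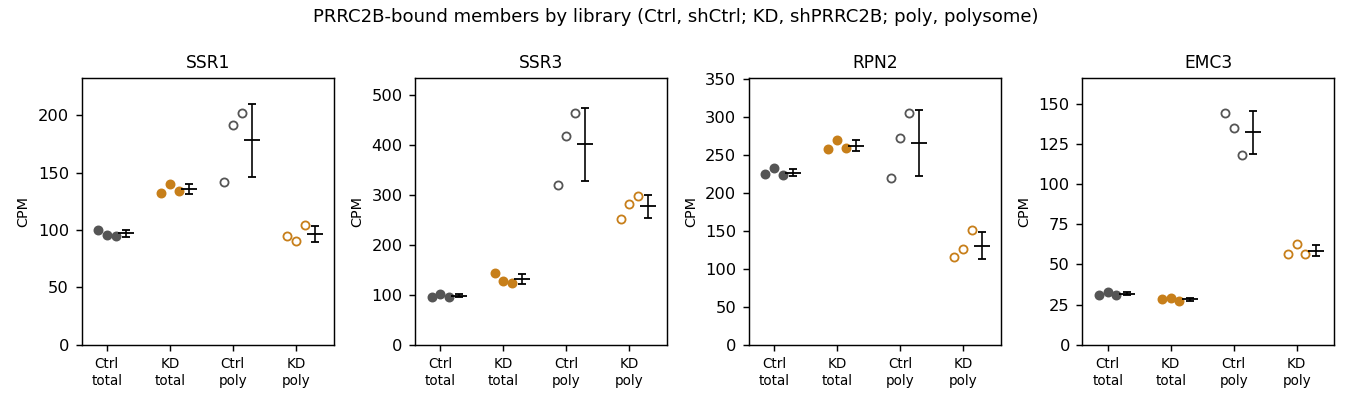
CPM of SSR1, SSR3, RPN2 and EMC3, the members of the PRRC2B-bound list, in each library (y axis, linear from 0; Ctrl, shCtrl; KD, shPRRC2B; filled points, total RNA; open points, polysome RNA; 3 libraries per group; horizontal line and bars, mean ± SD). In all 4 panels the 3 knockdown polysome libraries lie below the 3 control polysome libraries.

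Of the 7 OST genes listed, 4 were TE-down. STT3B, the catalytic subunit of the OST form that acts mainly after translocation, had CPM values of 174, 175 and 179 in shCtrl total RNA, 95.1, 99.1 and 108 in shCtrl polysome RNA, 132, 127 and 122 in shPRRC2B total RNA and 27.5, 19.9 and 19.5 in shPRRC2B polysome RNA. The knockdown polysome values reached at most 27.5 CPM where the lowest control polysome value was 95.1, and the TE change of -1.70 ± 0.18 (SE, edgeR adjusted p = 1.81e-05) was the lowest of the 42. STT3A, the catalytic subunit of the form that sits at the channel, had CPM values of 135, 133 and 135 in shCtrl total RNA, 66.6, 60.0 and 71.3 in shCtrl polysome RNA, 199, 201 and 196 in shPRRC2B total RNA and 41.4, 41.5 and 36.9 in shPRRC2B polysome RNA. Unlike STT3B it rose in total RNA (0.56 ± 0.11, SE, edgeR adjusted p = 0.000711) while it fell in polysome RNA (-0.72 ± 0.11, SE, edgeR adjusted p = 6.54e-05), and its TE change was -1.29 ± 0.16 (SE, edgeR adjusted p = 3.61e-05).

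RPN2, a structural OST subunit, had CPM values of 224, 232 and 223 in shCtrl total RNA, 219, 272 and 305 in shCtrl polysome RNA, 257, 269.8 and 258 in shPRRC2B total RNA and 115, 126 and 150.3 in shPRRC2B polysome RNA. Its log2 change in total RNA was 0.21, which was not called, its polysome RNA fell by 1.02 on the log2 scale, and its TE change was -1.23 ± 0.19 (SE, edgeR adjusted p = 0.000225). DDOST, which both OST forms contain, was TE-down (-1.18 ± 0.28, SE, edgeR adjusted p = 0.00555) with a rise in total RNA of 0.77. RPN1, another OST subunit, lost polysome RNA (-0.62 ± 0.13, SE, edgeR adjusted p = 0.00102) with a TE change of -0.32 ± 0.19 (SE) that was not called. The small subunits DAD1 and OSTC stayed near 0, at -0.04 ± 0.19 (SE) and -0.03 ± 0.17 (SE). OSTC had the highest TE change of the OST genes listed. Its CPM was 54.3, 53.0 and 61.5 in shCtrl total RNA and 528, 579 and 551 in shCtrl polysome RNA. In shPRRC2B it was 70.6, 74.3 and 64.0 in total RNA and 621, 703 and 691 in polysome RNA, higher in each knockdown library in both fractions.

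Of the 8 EMC genes listed, EMC1, EMC2 and EMC3 were TE-down and the other 5 were not called in TE. MMGT1 and EMC9 are counted with the further genes of targeting and insertion below and not with these 8. MMGT1 was TE-down (-1.31 ± 0.28, SE, edgeR adjusted p = 0.00238), and EMC9 was not called in TE (0.42 ± 0.21, SE). EMC3, whose membrane domain carries the insertase activity, had CPM values of 31.2, 32.9 and 31.1 in shCtrl total RNA, 144, 135 and 118 in shCtrl polysome RNA, 28.2, 29.1 and 27.5 in shPRRC2B total RNA and 56.6, 62.9 and 56.6 in shPRRC2B polysome RNA. The total RNA values lay close together, at most 29.1 against at least 31.1, the polysome values of the knockdown were all under those of the control, and the TE change was -1.01 ± 0.16 (SE, edgeR adjusted p = 0.000324). EMC1, the largest subunit, reached its TE change of -0.76 ± 0.18 (SE, edgeR adjusted p = 0.00538) through a rise in total RNA of 0.91 with polysome RNA at 0.15. EMC2, a cytosolic subunit, changed by -0.66 ± 0.22 (SE, edgeR adjusted p = 0.0325), and this call was lost without the first or second shCtrl total, second shCtrl polysome, second shPRRC2B total or the third shPRRC2B polysome library, with TE changes between -0.85 and -0.56. Total counts, TMM within each fraction and removal of the length trend lost it as well.

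EMC6, the partner of EMC3 in the membrane, had the highest TE change of the complex at 0.89 ± 0.37 (SE, edgeR adjusted p = 0.0843) and was not called. Its CPM was 2.87, 2.45 and 1.87 in shCtrl total RNA, 45.7, 22.9 and 25.3 in shCtrl polysome RNA, 2.94, 2.22 and 1.57 in shPRRC2B total RNA and 49.0, 52.2 and 59.1 in shPRRC2B polysome RNA. The total RNA values overlapped and were the lowest of all 42 genes, and 74.0% of its exon bases overlap another transcript on the opposite strand. EMC8, which sits beside EMC2, rose in both fractions, by 0.68 ± 0.17 (SE, edgeR adjusted p = 0.00468) in total RNA and 1.26 ± 0.17 (SE, edgeR adjusted p = 1.47e-05) in polysome RNA, the largest polysome rise of the 42. EMC10, a lumenal subunit, fell in both, with log2 changes of -1.04 ± 0.14 (SE, edgeR adjusted p = 3.07e-05) in total RNA and -0.86 ± 0.14 (SE, edgeR adjusted p = 0.000103) in polysome RNA, and its TE change was 0.19. The EMC subunits therefore moved in opposite directions at the level of total RNA.

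None of the 3 GET genes was TE-down. GET4, which hands tail-anchored proteins on to GET3, was the other TE-up gene, with CPM values of 7.21, 10.7 and 6.50 in shCtrl total RNA, 13.0, 18.7 and 9.87 in shCtrl polysome RNA, 9.29, 6.94 and 7.56 in shPRRC2B total RNA and 32.0, 26.3 and 21.4 in shPRRC2B polysome RNA. All 3 knockdown polysome values lay above all 3 control polysome values while total RNA overlapped, and the TE change was 0.99 ± 0.34 (SE, edgeR adjusted p = 0.0368). GET4 counts were low, 80.8% of its exon bases overlap other genes, among them SUN1, and the call was lost without the second shCtrl total, the third shCtrl polysome, the second or the third shPRRC2B total or the first or second shPRRC2B polysome library, with TE changes between 0.73 and 1.21. GET1, which with CAMLG forms the receptor in the ER membrane, had CPM values of 21.7, 22.2 and 23.8 in shCtrl total RNA, 239.7, 189.8 and 241 in shCtrl polysome RNA, 18.8, 20.7 and 19.2 in shPRRC2B total RNA and 168, 186 and 219 in shPRRC2B polysome RNA, with overlap in polysome RNA and a TE change of -0.03 ± 0.19 (SE). GET3, the ATPase of the pathway, rose alike in total RNA (0.67) and in polysome RNA (0.80).

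The 2 fractions showed which side of the ratio moved. In total RNA, 10 of the 42 genes were higher in the knockdown line and 3 were lower, where 14.9% of all genes tested were higher and 14.1% lower. In polysome RNA, 6 were higher and 16 lower, where 18.4% of all genes tested were higher and 21.4% lower. The median log2 change was 0.24 in total RNA, against 0.04 over all genes, and -0.23 in polysome RNA, against -0.01. Lower polysome RNA with no call in total RNA accounted for 11 of the 19 TE-down genes, namely SRPRA, SEC61A1, SEC62, SEC63, SSR1, SSR2, SSR3, RPN2, STT3B, EMC2 and EMC3. For SSR1 (0.48, edgeR adjusted p = 0.00819), SEC61A1 (0.45, edgeR adjusted p = 0.0152) and SSR3 (0.43, edgeR adjusted p = 0.0232), total RNA rose, but under the fold threshold. STT3B total RNA fell short of that threshold in the other direction (-0.47, edgeR adjusted p = 0.00788). Another 6, SRP54, SRP72, SEC61A2, SPCS3, DDOST and EMC1, had higher total RNA with no call in polysome RNA, though the total RNA call of SRP72 (log2 0.53) was lost in 11 of the alternatives run, among them total counts. STT3B, in contrast, was called lower in total RNA in 11 of the alternatives, among them total counts, TMM within each fraction and each polysome library left out, and then leaves the 11. STT3A showed both, and SRP68 neither. The TE change, the total RNA change and the polysome change of a gene come from the same 12 libraries, so these counts describe the fit and are not separate evidence.

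**Figure D3:**
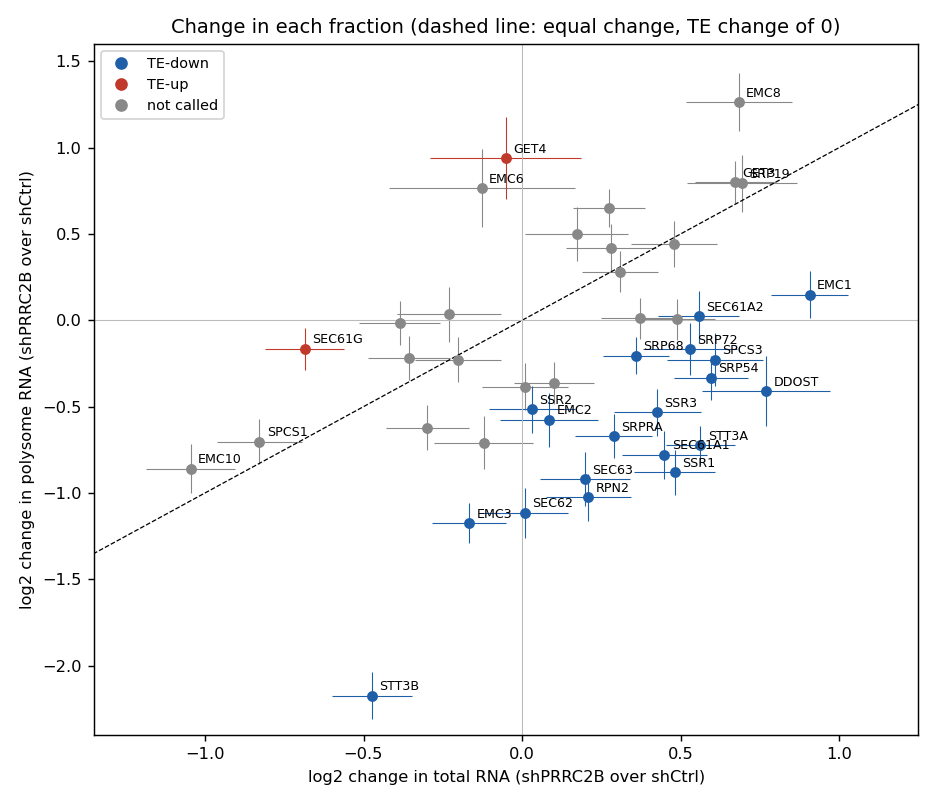
Log2 change in total RNA (x axis) against log2 change in polysome RNA (y axis), shPRRC2B over shCtrl, for the 42 genes, with bars for the standard error. Genes on the dashed line change equally in both fractions and have a TE change of 0. Most TE-down genes (blue) lie to the right of 0 and below it, and STT3B alone among them combines a lower total RNA estimate under -0.4 with a polysome change under -2.

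The machinery holds 3 paralog pairs, and their levels were set side by side as CPM per kilobase of the canonical transcript (RPKM). In shCtrl total RNA, STT3B was above STT3A, at 42.9 ± 0.672 against 29.9 ± 0.226 RPKM (SD, n = 3). In shPRRC2B total RNA the order was turned, at 30.9 ± 1.12 against 44.2 ± 0.528 RPKM. The STT3B-to-STT3A ratio ranged from 1.41 to 1.45 in the shCtrl total libraries and from 0.683 to 0.725 in the shPRRC2B total libraries. Between the polysome libraries it ranged from 1.56 to 1.81 in shCtrl and from 0.525 to 0.729 in shPRRC2B. In each fraction the ranges did not overlap, and an exact permutation test (two-sided) gave p = 0.1, the smallest that 3 against 3 libraries allow.

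The catalytic signal peptidase subunits differed in their balance in polysome RNA. SEC11A CPM was 87.8, 85.6 and 75.9 in shCtrl total RNA, 513, 462 and 569 in shCtrl polysome RNA, 81.7, 89.7 and 79.4 in shPRRC2B total RNA and 329, 408 and 445 in shPRRC2B polysome RNA. SEC11C CPM was 24.4, 23.0 and 23.3 in shCtrl total RNA, 213, 237 and 208 in shCtrl polysome RNA, 27.4, 29.8 and 28.2 in shPRRC2B total RNA and 321, 341 and 371 in shPRRC2B polysome RNA. SEC11A polysome RNA was lower and SEC11C polysome RNA higher in every knockdown library. Per length, the SEC11A-to-SEC11C ratio in polysome RNA was 1.73 ± 0.290 in shCtrl and 0.836 ± 0.0742 in shPRRC2B (SD, n = 3), and in total RNA 2.58 ± 0.174 and 2.15 ± 0.0788. The order in polysome RNA was thus turned per length only, since in CPM SEC11A was above SEC11C in every library. The exact permutation test again gave p = 0.1 in each fraction.

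For the channel pore, SEC61A1 stayed the more abundant form. SEC61A2 CPM was 25.2, 24.0 and 26.2 in shCtrl total RNA, 10.7, 10.4 and 11.8 in shCtrl polysome RNA, 36.3, 39.2 and 35.3 in shPRRC2B total RNA and 10.5, 10.8 and 12.1 in shPRRC2B polysome RNA. Its total RNA was higher in all knockdown libraries and its polysome values overlapped, giving -0.53 ± 0.19 (SE, edgeR adjusted p = 0.0494), a call kept without the first or second shCtrl polysome or the first or the third shPRRC2B polysome library and lost without any of the other 8, with TE changes between -0.63 and -0.50. It was also lost in 7 of the 10 other settings: total counts, TMM within each fraction, both count filters, both replicate blocks and the length trend removed with the block. The SEC61A1-to-SEC61A2 ratio in polysome RNA was 5.04 ± 0.734 in shCtrl and 2.92 ± 0.463 in shPRRC2B (SD, n = 3, exact permutation p = 0.1), while in total RNA it was 4.27 ± 0.509 and 3.95 ± 0.137 (exact permutation p = 0.6). Pairs that map to several places were not counted, so the levels of such near copies depend on their unique stretches.

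**Figure D4:**
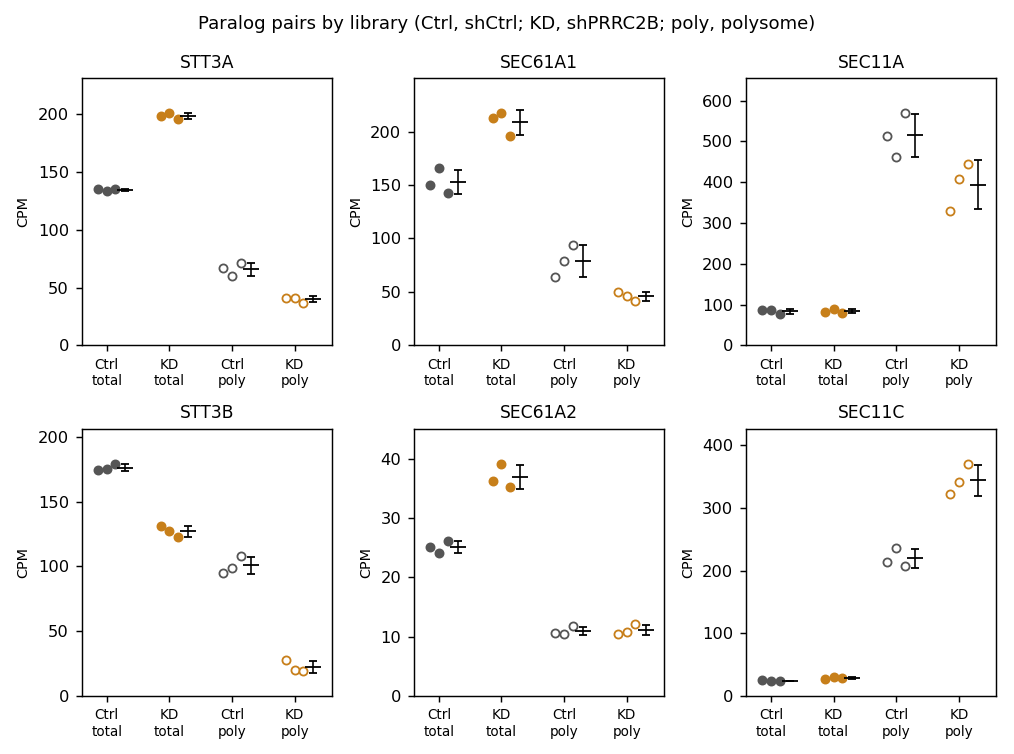
CPM of the paralog pairs STT3A and STT3B, SEC61A1 and SEC61A2, and SEC11A and SEC11C in each library (y axis, linear from 0; Ctrl, shCtrl; KD, shPRRC2B; filled points, total RNA; open points, polysome RNA; 3 libraries per group; horizontal line and bars, mean ± SD). In knockdown total RNA STT3A is higher and STT3B lower, and in knockdown polysome RNA SEC11A is lower and SEC11C higher.

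In control cells most of these mRNAs were rich in polysome RNA. Relative to total RNA, 28 of the 42 genes were above in the polysome libraries of shCtrl, where 32.5% of all genes tested were, and 8 were below, where 39.8% of all genes tested were. The median log2 ratio was 1.98, against -0.22 over all genes. This comparison depends on the scaling between fractions, since total counts or TMM within each fraction moved the median of all genes from -0.22 to -1.22 and left 23 genes above and 14 below. Relative to the median of all genes, the highest were SEC61B (log2 4.29) and SEC61G (4.26), followed by SSR4 (3.92) and EMC6 (3.90). The lowest were EMC1 (-1.38), SEC63 (-1.20) and SEC61A2 (-0.97). This order depends on transcript length: with the length trend removed, SEC61B (1.97) and SEC61G (1.93) lay below SPCS1 (4.23), EMC10 (3.02), SSR3 (2.84) and SSR1 (2.66). EMC1 (-0.17) and SEC63 (-0.03) then left the low end, where SEC61A2 (-1.40) and SRP54 (-1.20) lay.

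In shCtrl total RNA the levels per length covered a wide range, led by SSR4 (229 ± 18.9 RPKM, SD, n = 3) and SRP9 (218 ± 15.6), which did not differ beyond their spread, and followed by SEC61G (117 ± 5.66) and RPN2 (102 ± 2.11). At the low end, SRP19 (3.99 ± 0.747), GET4 (3.89 ± 1.08) and EMC6 (3.65 ± 0.767) lay within their spread of one another. The SRP proteins were thus unequal in mRNA level, as were the 4 TRAP subunits, with SSR1 at 10.0 ± 0.30 RPKM, a value that divides by a canonical transcript of 9661 nt.

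The TE change of the 42 genes went with the length of their transcripts. Across genes, which are not independent replicates and which share the 12 libraries, Spearman's rho between the log2 TE change and the length of the canonical transcript was -0.65 for the 42 genes and -0.41 for the 15762 genes tested that have a length. Within the 42 it was -0.68 with the length of the coding sequence, -0.49 with the 3′ untranslated region and 0.09 with the 5′ untranslated region. A split at 2000 nt, chosen after the values were seen, gave 2 TE-down genes of 17 (11.8%) among the shorter transcripts, where 3.12% of all genes of that length were TE-down. Among the longer ones 17 of 25 (68.0%) were TE-down, where 24.9% of all genes of that length were. Several of the short ones, such as SEC61B, SEC61G, SSR4, DAD1, OSTC and EMC6, encode small subunits. Others among the 17 do not, such as DDOST, which was TE-down, and GET3, with coding sequences of 1317 nt and 1044 nt. All 17 were above total RNA in the shCtrl polysome libraries, where 65.8% of all genes of that length were.

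When each library was corrected for its own trend of counts with transcript length, 16 of the 42 genes were TE-down, where 10.8% of all genes tested were, and 14 of the 16 were also TE-down without that step. SRP72, SEC63, SPCS3, EMC1 and EMC2 lost the call, EMC1 most clearly, from -0.76 to -0.17. SEC11A (-0.74) and EMC7 (-0.70), both with transcripts under 2000 nt, gained it. Neither of the 2 TE-up genes kept its call: SEC61G moved from 0.52 to 0.09, while GET4 moved only from 0.99 to 0.87 (edgeR adjusted p = 0.071). EMC10 became TE-up at 0.95 (edgeR adjusted p = 0.00346). SSR1, whose canonical transcript is the longest of the 42, moved from -1.36 to -0.58 and STT3B from -1.70 to -1.40, and both remained TE-down. Spearman's rho over the 42 genes was then -0.26, against -0.03 over all genes. The lengths are those of 1 transcript per gene, and the 8615 nt and 8724 nt 3′ untranslated regions given for EMC10 and SSR1 need not be the forms used in these cells.

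**Figure D5:**
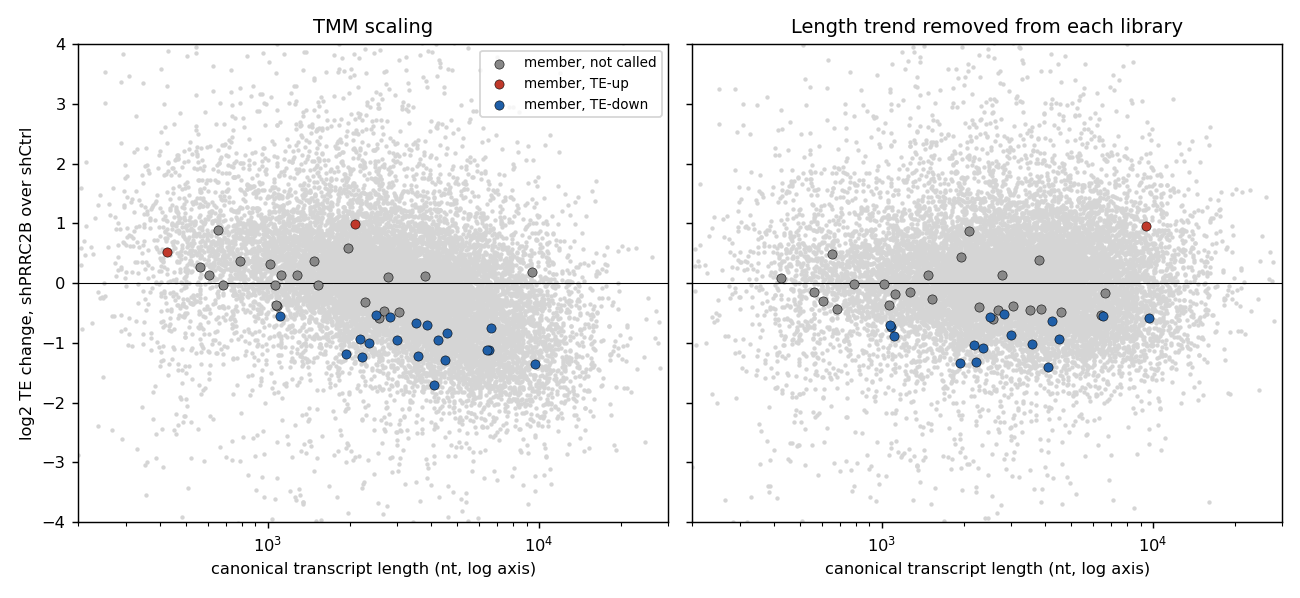
Log2 TE change (y axis) against canonical transcript length in nt (x axis, log scale) for all genes tested that have a length (small grey points) and the 42 genes (large points; blue, TE-down; red, TE-up; dark grey, not called), with TMM scaling (left) and after the length trend was removed from each library (right). On the left the large points fall with length, and on the right most blue points lie between -0.5 and -1.5 across lengths from about 1000 nt upward.

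The 4 members of the PRRC2B-bound list were all TE-down, all with lower polysome RNA and no call in total RNA. Total RNA of SSR1 (0.48) and SSR3 (0.43) rose, but under the fold threshold. After the length trend was removed all 4 were still TE-down, but the polysome changes of SSR1 (-0.31) and SSR3 (-0.31) were no longer called. The polysome call of SSR3 was also lost with a minimum of 10 counts in each library. SSR1 was also called higher in total RNA without the first shCtrl total or the first shPRRC2B total library. Over the bound list as a whole, 74 of 213 mRNAs tested (34.7%) were TE-down, where 16.4% of all genes tested were, and among the 38 genes outside the list 15 (39.5%) were. Counting any PAR-CLIP site with either bait, 11 of the 42 genes carried one, and 7 of these 11 were TE-down against 12 of the 31 without a site. The 4 bound members are among both the 11 and the 7, so this count is not separate from theirs. SRP54, SRPRA, STT3A and STT3B, whose TE-down calls were kept under every alternative run, had no site in either set. TE-down genes were thus found with and without a site, and with 4 bound members no test was made.

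Promoter sequence was searched for the ER stress elements, since several ER genes are transcribed under the unfolded protein response. RefSeq promoter windows around the transcription start (GRCh38.p14) were matched for 35 of the 42 genes. The ER stress response element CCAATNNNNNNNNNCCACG, on either strand, was in 0 of the 35 windows and in 6 of 24 windows of ER chaperone and unfolded protein response genes, where 0.0806% of all windows held it. The unfolded protein response element core TGACGTGG was in 2 of the 35 windows (5.71%), where 0.795% of all windows held it. It was in 1 of the 24 windows of ER chaperone and unfolded protein response genes (4.17%) and in 0 of 26 windows of other targeting and insertion genes. The 2 matches among the 35 windows are shown with the HSPA5 element for comparison, on the strand of the gene with the match in capitals. In SEC62 and SRP19 the match is on the opposite strand.
SEC62 (chr3:169966780-169966806): cctcctcgctCCACGTCAgagggaacc
SRP19 (chr5:112861165-112861192): agtcttcatgCCACGTCAgagactagag
HSPA5 (chr9:125241381-125241419): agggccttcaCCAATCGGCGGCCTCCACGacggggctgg

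In total RNA, SRP19 was higher in the knockdown line (0.69) and SEC62 was not called (0.01 ± 0.13, SE). A match of letters is a description and not a bound site.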

How the data were processed

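The values the authors deposited are unnormalized counts of read pairs, with a row per gene name and a column per library. Per the labels and the study's methods, trimming used Trimmomatic 0.36, mapping used HISAT2 2.1.0 on GRCh38, and counting used featureCounts (Subread 2.0.1) with GENCODE 38 names. No strand option is stated. No deposited column was left unassigned (0 columns of values of no library).

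Testing used edgeR 4.0.16 in R 4.3.3 (filterByExpr, minimum count 10; TMM; glmQLFit and glmQLFTest; 1 fit of 4 groups), with limma 3.58.1 underneath and DESeq2 1.42.0 as an alternative, and figures were drawn with matplotlib 3.10.9. P-values were adjusted over 18166 genes, and calls needed both an adjusted p below 0.05 and an absolute log2 change above 0.5. Intervals and errors are SDs between libraries or standard errors of the fit, at totals of 9855734 to 20837542 counts. GENCODE 44 gave a transcript length for 86.8% of tested genes. The pipeline was tested on simulated data.

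The gene set and lists were chosen with earlier results of these data known. Values in every library are given for the lowest and highest TE change among the listed genes of each complex, the PRRC2B-bound members and the paralog pairs. Other names were chosen after their values were seen. Site positions came from the study's PAR-CLIP tables, and sequences from GRCh38 and RefSeq. Some items are not reported here. Alternatives tried were DESeq2, RLE size factors, total counts, TMM within each fraction, genes with at least 1 count, at least 10 counts in every library, a replicate block, a block within line, removal of the length trend (lowess, span 0.3) with and without the block, no minimum log2 change, and each library left out.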

Additional observations from a re-analysis of the deposited data

Results flagged for a closer look

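The TE change is itself the difference between the lines in the polysome-to-total contrast, so each called gene is a result in which the 2 lines differ by the interaction term of edgeR's fit. Within the TE-down genes the log2 values were -1.70 for STT3B, -1.36 for SSR1, -1.29 for STT3A, -1.23 for RPN2, -1.23 for SEC61A1 and -1.18 for DDOST. They were -1.12 for SEC62, -1.12 for SEC63, -1.01 for EMC3, -0.96 for SSR3, -0.96 for SRPRA and -0.93 for SRP54. Smaller values were found for SPCS3 (-0.84), EMC1 (-0.76), SRP72 (-0.70), EMC2 (-0.66), SRP68 (-0.57), SSR2 (-0.55) and SEC61A2 (-0.53). The TE-up values were 0.99 for GET4 and 0.52 for SEC61G. With 3 libraries per group, single libraries were not tested as outliers.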

How the results depend on the processing

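The TE-down calls of SRP54, SRPRA, SEC61A1, SSR1, SSR3, RPN2, DDOST, STT3A, STT3B and EMC3 were kept in all 10 other tests, scalings, filters and blocks and without each of the 12 libraries. The number of TE-down genes, 19, ranged from 14 to 20 over these settings and from 15 to 22 over the left-out libraries, with 16 under total counts and 15 under TMM within each fraction. The number over all 18166 genes moved with the scaling too, from 2981 to 2620 under total counts and 2706 under TMM within each fraction. The 2 TE-up genes both lost their call after the length trend was removed, where 1 other gene, EMC10, was TE-up, also 1 with the replicate block added. The count was 0 to 4 without 1 library: 0 without the second shCtrl total, the third shCtrl polysome, the second or the third shPRRC2B total or the first shPRRC2B polysome library, and 4 without the first shCtrl polysome library. With no minimum log2 change, 17 genes were higher and 6 lower in total RNA in place of 10 and 3. That rule is looser for every gene, and the share of all genes it called in total RNA was not counted. With the minimum kept, leaving out single libraries gave 9 to 12 higher and 3 to 4 lower in total RNA. In polysome RNA the counts of 6 and 16 became 5 to 7 and 15 to 18 without 1 library. After the length trend was removed 13 were lower, 11 of them among the 16, and 12 with the block added, 10 of them among the 16. The polysome calls lost were those of SSR1, SSR3, STT3A, EMC2 and EMC10, and with the block also SEC63. The 8 genes below total RNA in shCtrl became 14 under total counts, 14 under TMM within each fraction, 2 after the length trend was removed and 2 with the replicate block added to that. The cause was not tested. With a replicate block, 18 of the 42 genes were TE-down and 3 TE-up, where 2807 and 1812 of all 18166 genes tested were. With a block within line 17 and 3 were, where 2666 and 1656 of all 18166 genes tested were. Deviations of same-numbered libraries from their group means correlated between -0.06 and 0.05, so the numbers were not taken to pair the libraries, and the block changed no count by over 1.5 times except together with the length trend. Under the block alone SEC61G and SEC61A2 lost their TE call and EMC6 and EMC8 gained one. SSR2 lost its polysome call without the third shCtrl polysome library. TE calls gained without 1 library were those of SRPRB, TRAM1, SPCS2, SEC11A, EMC6 and EMC8. Depth limits EMC6 and GET4 most, whose counts were the lowest of the 42 in total RNA.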

Other observations

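The chaperones of the ER lumen and the sensors of the unfolded protein response, a list of 25 genes chosen with earlier results of these data known, held 12 TE-down genes (48.0%) and 1 TE-up gene, where 16.4% and 10.7% of all genes tested were, with a median log2 TE change of -0.60. The lectin chaperone CANX had the lowest value (-2.26 ± 0.21, SE, edgeR adjusted p = 9.59e-06), followed by DNAJC3 (-1.79), HSP90B1 (-1.51) and HSPA5 (-1.33), the main ER Hsp70. HSPA5 CPM was 234, 237 and 244 in shCtrl total RNA, 169, 131 and 138 in shCtrl polysome RNA, 375, 368 and 354 in shPRRC2B total RNA and 100.4, 73.6 and 93.1 in shPRRC2B polysome RNA. Its total RNA rose while its polysome RNA fell, with no overlap between the lines in either fraction. PDIA3, PDIA4 and PDIA6, disulfide isomerases, and CALR, DNAJB11, SEL1L, SYVN1 and ATF6 were TE-down as well. ERN1, a sensor of the response, was the TE-up gene (1.44 ± 0.27, SE, edgeR adjusted p = 0.000894). In total RNA, where 14.9% of all genes tested were higher and 14.1% lower, 8 of the 25 were higher, CALR by the most (1.04), and 2 were lower, EDEM1 (-1.56) and ATF4 (-0.64).

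Of 30 further genes of targeting and insertion, 29 were tested, and WDR83OS had at most 2 counts in a library. Among the 29, 10 (34.5%) were TE-down and 3 (10.3%) TE-up, the latter close to the 10.7% of all genes tested, with a median of -0.38. The TE-down genes included the ribosome receptor RRBP1 (-2.13 ± 0.32, SE, edgeR adjusted p = 0.000169), the kinectin gene KTN1 (-1.53), CCDC47 (-1.37) and MAGT1 (-1.33), the oxidoreductase that works with STT3B. The TE-up genes were the small subunits OST4 (0.69) and TMEM258 (0.78) of the OST and TMEM147 (1.10). The calls of these 29 genes and of the 25 genes above come from the fit in which the length trend was not removed. MAGT1 CPM was 117, 127 and 127 in shCtrl total RNA, 35.5, 67.8 and 56.2 in shCtrl polysome RNA, 163, 173 and 149 in shPRRC2B total RNA and 30.4, 25.4 and 26.7 in shPRRC2B polysome RNA, and its polysome RNA was lower in the knockdown without overlap. NACA and BTF3, which bind nascent chains in the cytosol, were not called in TE (0.27 ± 0.18, SE and -0.33 ± 0.19, SE).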
